A study of Drosophila melanogaster with 3 samples.

Results

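The proteasome subunit genes described here are 48 protein-coding fly genes, chosen from the 13968 protein-coding genes of the annotation by symbol alone (names starting with Prosalpha, Prosbeta, Rpn or Rpt and a number). They comprise 32 canonical subunits and 16 paralogues, which carry an R or a T after the number of the subunit they resemble. Elba2 binding at their promoters was taken from chromatin immunoprecipitation and sequencing of embryos of both sexes, 0 to 4 h old, in 3 biological replicates of 1 group. All replicates came from 1 transgenic line that stably expresses Elba2 with enhanced green fluorescent protein at its C terminus, and an antibody to GFP pulled down the chromatin. No untagged or input sample is among the 3, and whether the flies kept an untagged copy of Elba2 is not given in the sources used here. Whole embryos were used, so binding in fewer cells and weaker binding per cell cannot be told apart.

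The proteasome degrades proteins marked with ubiquitin. Its barrel-shaped core has outer rings of alpha subunits, which gate the entrance, and inner rings of beta subunits, of which Prosbeta1, Prosbeta2 and Prosbeta5 carry the proteolytic sites. The regulatory particle on the barrel's end has a base, where 6 Rpt ATPases unfold substrates, and a lid, where Rpn11 removes ubiquitin. The early embryo starts with proteasomes supplied by the mother, while several of the fly paralogues are known to be expressed in the male germ line. Elba2 is a BEN-domain subunit of ELBA, an insulator-binding complex of the early embryo.

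A gene is called bound where a transcription start site (TSS) in its annotation had an optimal peak summit no more than 500 bp away. The optimal set is the 3276 peaks that the authors kept after thresholding on the irreproducible discovery rate (IDR). Regions of the permissive lists were ranked by the authors' signal value, rank 1 being the strongest, among 28496 regions of the pooled replicates and 29295, 30000 and 30000 regions of replicates 1, 2 and 3. These signal values are the authors' own, and read depth is unknown.

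The sequences under the peaks are shown for 5 of the 6 bound members whose summits carry a known word (all but Prosbeta1). For contrast, 2 peaks without a word within 100 bp of the summit and 1 unbound paralogue are shown. Of these 2 peaks, that of Prosbeta3 belongs to a promoter with an M1BP site outside the stretch shown. All are 5′ to 3′ on the strand of the named gene, on build dm6. Capitals mark the word named. Stretches of annotated UTR were left out beyond 30 bases around a word.
Rpt4, ELBA site, chrX:6291338-6291367, minus strand: acacaataattCCAATAAGaattatgccgg
Rpn7, Insensitive palindrome, chr3R:22462055-22462228, minus strand: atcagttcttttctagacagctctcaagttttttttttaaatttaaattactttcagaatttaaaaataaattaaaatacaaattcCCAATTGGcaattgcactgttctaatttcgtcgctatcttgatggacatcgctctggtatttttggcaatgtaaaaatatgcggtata
Rpn7, DRE, chr3R:22462033-22462062, minus strand: gcggtataattTATCGATAattttggggtc
Rpt3, DRE, chrX:11124727-11124836, plus strand: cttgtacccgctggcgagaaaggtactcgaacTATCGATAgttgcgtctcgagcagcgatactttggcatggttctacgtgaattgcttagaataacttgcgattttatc
Prosalpha2, M1BP site, chr3R:12431327-12431356, plus strand: attcagcattcGGTCACACtgccgcccaat
Prosbeta7, M1BP site read on the other strand, chr3R:5358252-5358281, minus strand: catgtaaaacgGTGTGACCaagctaatagt
Rpn2, no word, chr3R:29153358-29153523, plus strand: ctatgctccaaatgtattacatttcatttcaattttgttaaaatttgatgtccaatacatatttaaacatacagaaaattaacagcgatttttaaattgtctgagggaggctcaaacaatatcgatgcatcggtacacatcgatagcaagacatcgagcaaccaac
Prosbeta3, no word, chr3R:9006227-9006393, minus strand: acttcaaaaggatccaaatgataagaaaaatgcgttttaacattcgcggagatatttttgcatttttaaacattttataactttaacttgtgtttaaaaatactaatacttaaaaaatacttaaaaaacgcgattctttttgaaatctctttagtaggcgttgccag
Rpt4R, unbound paralogue of Rpt4, chr3L:11941712-11941911, plus strand: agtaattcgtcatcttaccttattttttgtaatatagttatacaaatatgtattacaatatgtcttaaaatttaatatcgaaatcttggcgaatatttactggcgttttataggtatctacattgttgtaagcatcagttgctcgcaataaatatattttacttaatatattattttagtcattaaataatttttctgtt

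The question asked first was how many proteasome promoters carried Elba2. Of the 48 genes 13 were bound, all of them canonical subunits, so that 13 of 32 canonical subunits (40.6%) and 0 of 16 paralogues were bound. Over all protein-coding genes the same call was made for 17.9%. The bound subunits were spread over the core, the base and the lid. In the regions of each replicate down to the rank of 3276, 15, 14 and 13 canonical subunits had a summit at a TSS in replicates 1, 2 and 3 (14 ± 1, SD, n = 3), or 43.8% ± 3.12. The share of all protein-coding genes was 18.7%, 17.4% and 16.0% in the same replicates. No paralogue was among the top 3276 of any replicate. These counts are descriptions of a list chosen with earlier results of these data known, and no test of the list was made.

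**Figure D1:**
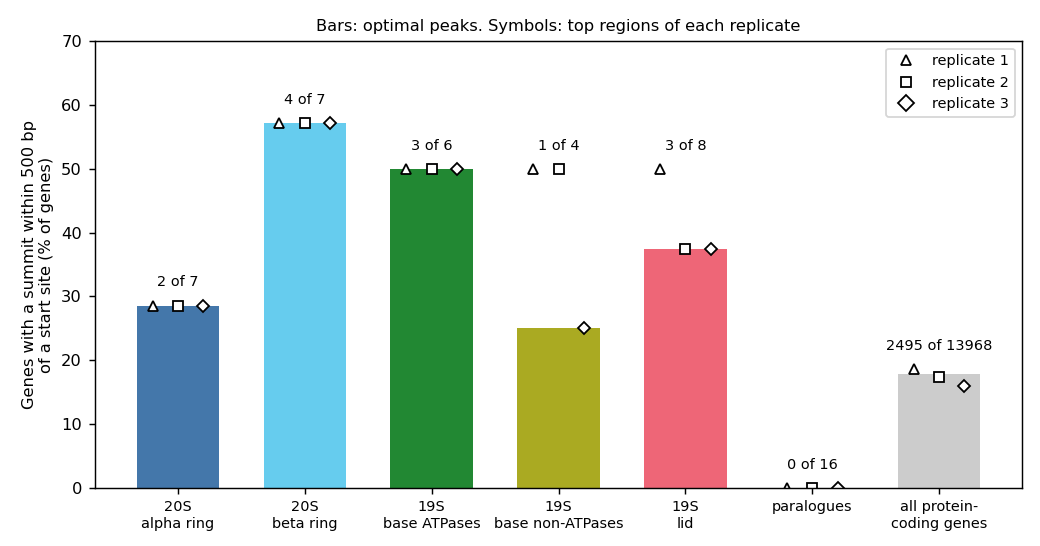
Percentage of genes with a summit within 500 bp of a TSS, by role in the proteasome and over all protein-coding genes. Bars show the optimal peaks, with the number of bound genes above them, and symbols the top 3276 regions of each replicate. The beta ring stands at 4 of 7 in the optimal set and in every replicate, and the paralogues at 0 of 16.

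Genes with a single annotated TSS offer fewer chances of a call, so the number of TSSs was set beside the counts. Canonical subunits had 1.34 TSSs on average and all protein-coding genes 1.41. Among canonical subunits with 1 TSS 10 of 22 were bound, and among those with several 3 of 10. Of all 10269 protein-coding genes with 1 TSS 14.9% were bound. Since 17.9% of all protein-coding genes were bound, the share among genes with several TSSs was above 17.9%. The 3 of 10 should therefore not be read against 14.9%.

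In the alpha ring 2 of 7 genes were bound, Prosalpha2 and Prosalpha5. The Prosalpha2 peak (signal 208) ranked 924 in the pooled list and 1045, 1686 and 644 in replicates 1, 2 and 3. Its summit lay in the 5′ UTR of the gene, 93 bp downstream of the TSS, and the replicate summits were at most 5 bp from it. The Prosalpha5 peak (signal 195) ranked 1066 in the pooled list and 1487, 1403 and 487 in the replicates. Its summit lay in a coding exon, 167 bp downstream of the nearest TSS. Both alpha subunits therefore had their summits downstream of the start, and both ranked highest in replicate 3.

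The other alpha subunits were unbound. Prosalpha3 and Prosalpha6 had weak regions, with pooled ranks of 8344 and 7623. Prosalpha3 ranked 7880, 9648 and 15261 in the replicates, and Prosalpha6 ranked 7342, 22266 and 16458. Prosalpha1, Prosalpha4 and Prosalpha7 had no pooled region at the TSS. Prosalpha1 had none in any replicate either, the only canonical subunit of which this was true. Prosalpha4 had regions at ranks 20932 and 10738 in replicates 1 and 2, and Prosalpha7 at ranks 18730 and 4302 in replicates 1 and 3. No alpha subunit other than Prosalpha2 and Prosalpha5 reached the top 3276 in a replicate.

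In the beta ring 4 of 7 genes were bound. Among the proteolytic subunits, Prosbeta1, which cuts after acidic residues, ranked 858 in the pooled list (signal 215) and 946, 702 and 1726 in the replicates. Prosbeta5, which cuts after hydrophobic residues, ranked 892 (signal 211) and 982, 1020 and 1109, the narrowest range among the bound members. Prosbeta2, the third proteolytic subunit, was unbound, with a pooled rank of 6070 and ranks of 5466, 22705 and 5517. Among the proteolytic subunits Prosbeta1 and Prosbeta5 were thus bound and Prosbeta2 was not. The calls were drawn from these same replicates, so their ranks are not separate support for this difference.

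Of the beta subunits without a proteolytic site, Prosbeta3 ranked 1278 in the pooled list (signal 181) and 1411, 1329 and 1496 in the replicates. Prosbeta7 ranked 1394 (signal 174) and 1231, 2377 and 1437. Prosbeta4 and Prosbeta6 were unbound. Prosbeta4 had a region in replicate 1 only (rank 7141), and its pooled region at rank 5740 lay 499 bp upstream, at the edge of the window. Prosbeta6 ranked 11767 in the pooled list and 8083, 25815 and 7464 in the replicates.

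Of the 6 ATPases of the base 3 were bound. Rpt3 had the strongest peak of these, with a signal of 268, a pooled rank of 525 and ranks of 725, 400 and 486 in the replicates. Its summit lay 365 bp upstream of the Rpt3 TSS, and a second optimal peak (rank 2379) lay 162 bp upstream. Rpt4 ranked 748 in the pooled list (signal 229) and 679, 933 and 1188 in the replicates, with the summit 43 bp upstream. Rpt1 ranked 1791 (signal 152) and 2794, 1421 and 1515, with the summit 63 bp downstream, in the 5′ UTR. Rpt2 and Rpt5 were unbound, with pooled ranks of 6743 and 4804. Rpt2 ranked 4499 in replicate 1 and 25602 in replicate 3 and had no region in replicate 2, and Rpt5 ranked 4065, 17148 and 7746. Rpt6 had a region in replicate 1 only, at rank 13110. No unbound ATPase reached rank 3276 in any replicate, which was also true of 75.6% of all protein-coding genes. The calls were drawn from these same replicates, so the replicate ranks are not separate support for them.

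Of the 4 other base subunits only Rpn2, the scaffold that holds the ubiquitin receptor Rpn13, was bound. It ranked 1984 in the pooled list (signal 144) and 2674, 2133 and 1134 in the replicates. The 3 ubiquitin receptors of the proteasome, Rpn1, Rpn10 and Rpn13, were unbound. Rpn13 and Rpn1 stood just below the optimal set, with pooled ranks of 3533 and 3554. Rpn13 ranked 2280, 2984 and 11862 in the replicates, so that replicates 1 and 2 placed it above rank 3276 and replicate 3 did not. Rpn1 ranked 3665, 3830 and 7057, and Rpn10 ranked 4544, 3981 and 5780. An optimal summit lay 607 bp from a TSS of Rpn10, outside the window.

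In the lid 3 of 8 genes were bound. Rpn7, a PCI-domain subunit that helps to assemble the lid, had the strongest peak of all proteasome genes. Its signal was 404, its pooled rank 172 and its ranks in replicates 1, 2 and 3 were 245, 82 and 267. The summit lay 74 bp upstream of the TSS, and a second optimal peak (rank 1549) lay 274 bp upstream. Rpn5, another PCI-domain subunit, ranked 1193 (signal 186) and 1440, 662 and 2267.

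Rpn11, the deubiquitinase of the lid, was the weakest bound member. Its signal of 111 stood close to the lowest value of the optimal set, 109, and its pooled rank was 3148. It ranked 1586 in replicate 1 and 7359 in replicate 2 and had no region within 500 bp of the TSS in replicate 3. When each replicate was left out in turn and the top regions shared by the other 2 were used instead of the optimal set, Rpn11 had no such region in any of the 3 cases. The call was also lost within 250 bp of a TSS, since its summit lay 268 bp upstream.

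The unbound lid subunits were Rpn3, Rpn6, Rpn8, Rpn9 and Rpn12, and all had a pooled region at a TSS. Rpn9 ranked 4403 in the pooled list and 2496, 11770 and 2212 in the replicates. It had a shared top region when replicate 2 was left out, and an optimal summit lay 524 bp from its TSS. Rpn3 ranked 5198, with 5754, 2231 and 6424 in the replicates, and Rpn8, the inactive partner of Rpn11, ranked 5459, with 4637, 4455 and 11702. Rpn6 ranked 7022, with 5627, 4227 and 19432, and Rpn12 ranked 14120, with 15526, 5377 and 12475. Rpn3, Rpn9 and Rpn11 changed sides of rank 3276 between replicates, and no core subunit did. Over all protein-coding genes 7.62% were in the top 3276 of 1 replicate only and 5.88% in that of 2. The difference between lid and core rests on few genes and was not tested.

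**Figure D2:**
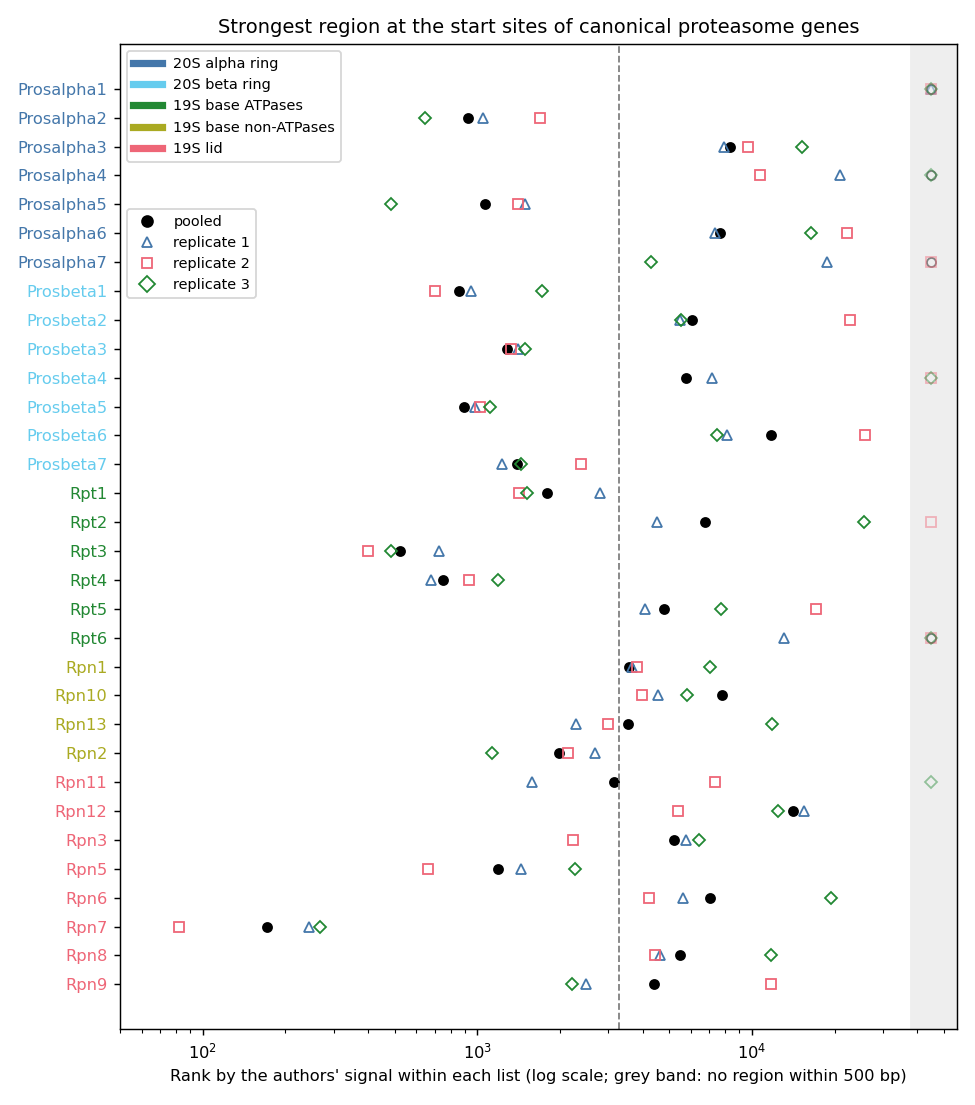
Rank of the strongest region within 500 bp of a TSS of each canonical subunit, on a log scale, in the pooled list (filled circles) and in each replicate (open symbols). The dashed line marks rank 3276, and the grey band holds genes with no region at a TSS in that list. The 13 bound genes lie to the left of the line in the pooled list, with Rpn7 farthest left and Rpn11 nearest to the line.

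Regions of any strength, the optimal peaks included, were counted next. In the pooled list 28 of 32 canonical subunits (87.5%) had a region at a TSS, against 53.2% of all protein-coding genes, and 25 of 32 (78.1%) had one in every replicate, against 37.6% of all genes. The median pooled rank of these 28 genes was 3543.5, against 5680 over the 7432 protein-coding genes with a region. Among genes with a pooled region, 13 of 29 proteasome genes (44.8%) were bound, which includes 1 paralogue in the 29, against 33.6% of all such genes. The 15 canonical subunits with a pooled region that were not bound ranked from 3533 to 14120, with a median of 6070.

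Of the canonical subunits 12 were in the top 3276 of all 3 replicates (37.5%, against 10.9% of all protein-coding genes). A further 2 were so in 2 replicates (Rpn9, and Rpn13 at separate sites), 2 in 1 replicate (Rpn11 and Rpn3) and 16 in none. The 12 were the bound members other than Rpn11. For these 12, a region lay within 200 bp of the optimal summit and within the top 3276 in each replicate.

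The paralogues were compared with the subunits they resemble. Of the 16 paralogues 11 had no region at a TSS in any replicate. These were Prosalpha1R, Prosalpha3T, Prosbeta2R1, Prosbeta2R2, Prosbeta4R1, Prosbeta4R2, Prosbeta5R1, Rpn12R, Rpn13R, Rpt4R and Rpt6R. Over all protein-coding genes 66.9% had a region in at least 1 replicate, and over the paralogues 31.2% did. The 5 with a region each had it in 1 replicate. In replicate 3, Prosalpha4T1 ranked 11078, Prosbeta5R2 ranked 11484, Prosalpha4T2 ranked 12112 and Rpt3R ranked 25258. In replicate 2, Prosalpha6T ranked 22934. Prosalpha4T2 alone had a pooled region, at rank 28419 of 28496.

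The paralogues come from 12 canonical genes, of which 3 were bound, Prosbeta5, Rpt3 and Rpt4. Rpt4 ranked 679, 933 and 1188 while Rpt4R had no region in any replicate. Rpt3 ranked 725, 400 and 486 while Rpt3R had a region in replicate 3 only. Prosbeta5 ranked 982, 1020 and 1109 while Prosbeta5R1 had no region and Prosbeta5R2 had one in replicate 3. Of the 20 canonical subunits without a paralogue 10 were bound. Paralogues were also short of the sequence words below, and the nearest optimal summit was 3911 bp away at Prosbeta2R2 and 155114 bp away at Prosbeta5R2, the shortest and longest distances among them.

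Summit positions were described within the 500 bp that define a call, relative to the nearest TSS of the gene. For the 13 bound members the strongest summit had a median position of 51 bp upstream of the TSS and ran from 365 bp upstream to 167 bp downstream. For all 2495 bound genes the median was 84 bp upstream. The summit was within 100 bp of the TSS at 9 of 13 members (69.2%) and at 43.6% of all bound genes. It was upstream at 10 of 13 (76.9%) and at 75.4% of all bound genes, so the members did not stand apart in this. Prosbeta7, which has 2 TSSs, counts here as upstream of the nearer one, while its summit lay downstream of the outer one. The summit was intergenic at 8 members (61.5%) and in a 5′ UTR at 3 (23.1%, Prosalpha2, Prosbeta7 and Rpt1). It was in a coding exon at Prosalpha5 and in an intron of Hat1 at Rpn5. Over all bound genes 52.4% of summits were intergenic, 30.2% in a 5′ UTR, 2.93% in a coding exon and 13.9% in an intron. In the 3 replicates, the median position of the members in the top 3276 was -51, -58.5 and -41 bp from the TSS, negative values being upstream (-50.2 ± 8.78, SD, n = 3).

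Most of these peaks faced a neighbouring gene. At 8 of 13 bound members (61.5%) the peak also lay within 500 bp of the TSS of another protein-coding gene, in each case one that runs in the opposite direction. Over all bound genes 61.0% shared their strongest peak, so sharing was as frequent at proteasome genes as elsewhere. The pairs were Prosbeta1 with Rrp42, an exosome subunit, Prosbeta3 with Iru, a ubiquitin ligase, and Prosbeta5 with dgo, a planar polarity gene. Rpt3 was paired with CG11122, Rpt4 with mldr, Rpn2 with Slbp, which binds the end of histone mRNAs, Rpn5 with Hat1, a histone acetyltransferase, and Rpn7 with AP-2mu, a clathrin adaptor subunit. The paired TSSs were 58 bp apart at Rpt4 and 401 bp apart at Rpn7, the shortest and longest distances. At Rpt3, Rpt4 and Rpn5 the summit was nearer to the other gene.

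For Rpt3 the nearness was marked, with the strongest summit 10 bp upstream of the CG11122 TSS and 365 bp upstream of that of Rpt3. For Rpt4 the distances were 15 bp to mldr and 43 bp to Rpt4. When each peak was given only to the gene with the nearest TSS, Rpt4 and Rpn5 lost their calls, Rpt3 kept its call through its second peak, and 11 members were bound against 12.99% of all protein-coding genes. These 8 peaks cannot be assigned to the proteasome gene alone. The 5 bound members with a peak of their own were Prosalpha2, Prosalpha5, Prosbeta7, Rpt1 and Rpn11.

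**Figure D3:**
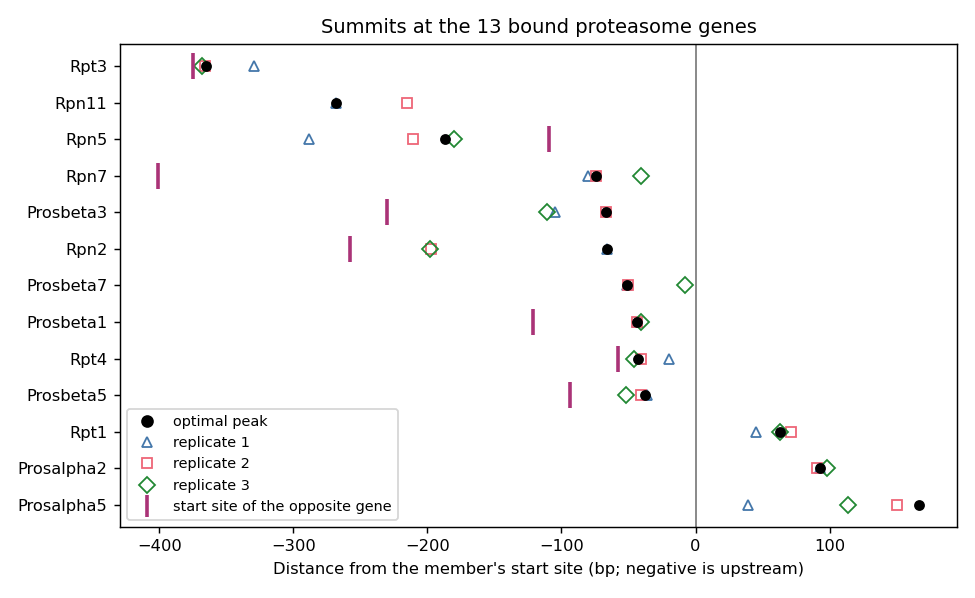
Position of summits relative to the TSS of each bound proteasome gene in bp, with negative values upstream. Filled circles are the strongest optimal summit of each gene. Open symbols are the strongest replicate region within 200 bp of it, and bars the TSS of the gene on the opposite strand. The summit at Rpt3 sits at the opposite gene, and those at Prosbeta1 and Prosbeta5 lie between both starts.

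At 9 of the 13 members the replicate summits were at most 44 bp from the optimal one in all 3 replicates. At Prosbeta1 the replicate summits were 0, 0 and 3 bp from the optimal one, and at Prosalpha2 they were within 5 bp. At Rpn2 the summits of replicates 2 and 3 were 131 and 132 bp farther upstream, toward Slbp, while that of replicate 1 was at the optimal position. At Prosalpha5 the summit of replicate 1 was 128 bp nearer to the TSS, and at Rpn5 that of replicate 1 was 101 bp farther upstream. At Rpn11 the summit of replicate 2 was 53 bp from the optimal one, and replicate 3 had no region there. Sonicated fragments of 200 to 800 bp, per the labels, limit the precision of all these positions.

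Sequence words were searched next, on both strands within 100 bp of the strongest summit. CCAATAAG is the asymmetric ELBA site, and CCAATTGG the palindrome bound by Insensitive, a related BEN-domain protein. GGTCACAC is the site of M1BP, a factor at core promoters of housekeeping genes, and TATCGATA is the DNA replication-related element (DRE), bound by Dref and BEAF-32. CCAATTGG and TATCGATA read the same on both strands, and the 4 words do not overlap each other at the members. Of the 13 bound members 1 had the ELBA site (Rpt4), 1 the palindrome (Rpn7), 3 the M1BP site (Prosalpha2, Prosbeta7 and Rpn7) and 3 the DRE (Prosbeta1, Rpt3 and Rpn7). Over all bound genes the shares were 4.49%, 6.89%, 10.98% and 9.62%. In all 6 of 13 members had at least 1 of the words, against 29.2% of all bound genes, and 7 had none.

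The strongest proteasome peak, at Rpn7, was the one with the most words. The palindrome lay 10 bp upstream of the summit and 84 bp upstream of the Rpn7 TSS. The DRE and the M1BP site lay at the start of the transcript, 7 and 22 bp downstream of the TSS. At Rpt4 the ELBA site lay 64 bp from the summit, 107 bp upstream of the Rpt4 TSS and beyond the TSS of mldr. At Rpt3 the DRE lay 26 bp from the summit and 339 bp upstream of the Rpt3 TSS, where the paired TSSs are 375 bp apart. At Prosbeta1 it lay 73 bp from the summit and 117 bp upstream of the Prosbeta1 TSS, where the paired TSSs are 121 bp apart. Both of these DREs were thus nearer to the TSS of the other gene, CG11122 or Rrp42. Peaks without a word within 100 bp of the summit included Prosbeta5 (signal 211) and Prosalpha5 (signal 195). Both were above the median signal of all bound genes, 171. The wider promoter window of Prosalpha5, described below, did hold a DRE. The median signal of the bound members was 195. The median GC content of the 201 bp around the summit was 41.3% at the members and 38.8% at all bound genes.

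The promoters themselves were then searched, in windows from 250 bp before to 50 bp after the outermost TSS, bound or not. The DRE was present at 12 of 32 canonical subunits (37.5%), against 9.36% of all protein-coding promoters and 16.6% of those of bound genes. It was more frequent among the unbound canonical subunits, at 9 of 19, than among the bound ones, at 3 of 13. The unbound ones were Prosalpha3, Prosalpha6, Prosbeta2, Prosbeta6, Rpt5, Rpn3, Rpn9, Rpn12 and Rpn13, and the bound ones Prosalpha5, Prosbeta1 and Rpn7. The M1BP site was present at 3 of 13 bound subunits (Prosalpha2, Prosbeta3 and Rpn7) and at 2 of 19 unbound ones (Prosalpha4 and Rpn1). Its share was 7.70% of all promoters and 16.6% of those of bound genes. The ELBA site and the palindrome were each present at 1 canonical promoter, against 0.981% and 0.959% of all promoters. Among promoters of bound genes their shares were 2.28% and 3.13%. None of the 16 paralogue promoters held any of the 4 words, which 17.6% of all promoters did. These are matches of letters and not measured sites.

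**Figure D4:**
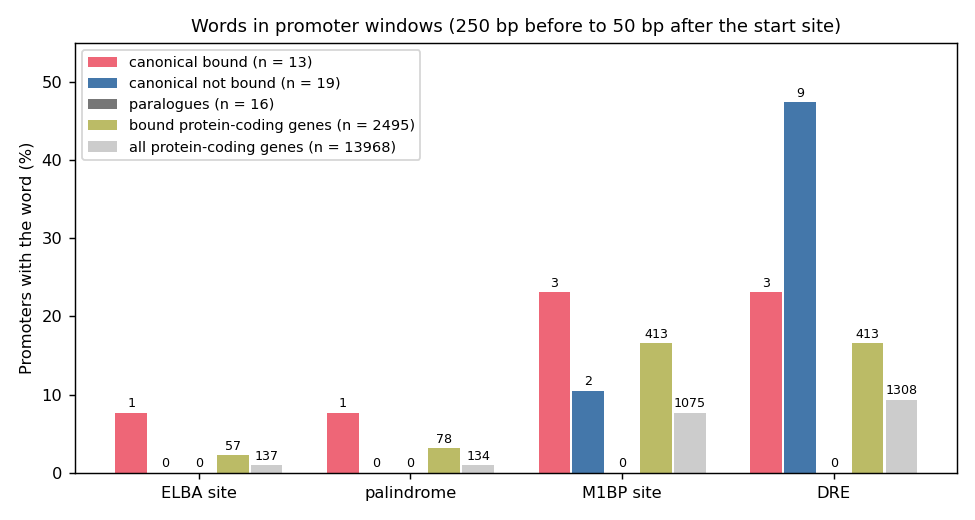
Percentage of promoter windows that hold each word, with the number of promoters above each bar, for bound and unbound canonical subunits, paralogues, all bound genes and all protein-coding genes. The DRE stands at 9 of 19 unbound and 3 of 13 bound canonical subunits, and the paralogue bars are at 0 for each word.

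Genes that work with the proteasome were described from a list of 25 symbols, which gave 22 genes. Of these 9 were bound (40.9%, against 17.9% of all protein-coding genes). The strongest were PSMG1, an assembly chaperone of the core (signal 239, ranks 696, 837 and 918 in the replicates), and Ufd1, a cofactor of the unfoldase TER94 (signal 216, ranks 1481, 572 and 617). Both share their peak, with CG10979 and NaPi-III. The enzyme Uba1, which activates ubiquitin, the TER94 cofactor p47 and the polyubiquitin gene Ubi-p63E followed, with signals of 161, 159 and 152 and no other gene at the peak. Uba1 ranked 1349, 1774 and 1235, p47 ranked 1712, 2098 and 1722, and Ubi-p63E ranked 2162, 3517 and 655.

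The shuttle factor gene rngo (signal 148) and ntc (133), an F-box gene of sperm individualisation, shared their peaks with Cdc50 and with CG32264 and IntS10. Both deubiquitinases that dock on the proteasome, Uch-L5 (116, shared with Jarid2) and Usp14 (111, shared with CG4972), were bound near the lower end of the optimal set. Uch-L5 ranked 3341, 2750 and 3649 in the replicates, and Usp14 ranked 3078, 1643 and 5189. The optimal summit of Usp14 lay 347 bp upstream of the nearest TSS, and its replicate 3 region 499 bp downstream. The deubiquitinases Rpn11, Uch-L5 and Usp14 all stood at pooled ranks between 2928 and 3176. They come from separate lists, and grouping them by function was not planned and was not tested. The other 13 genes of the list were unbound. One of them, singled out after its values were seen, was Sem1, a small lid subunit whose name lies outside the symbol rule. It had no pooled region at its TSS and a region at rank 18367 in replicate 3 only.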

How the data were processed

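Peak lists in narrowPeak layout were analysed. According to the deposited notes, the authors made a permissive list of peaks and background for each replicate and for the pooled replicates on build dm6, and took the optimal set from these 4 lists by IDR. The notes derive each replicate's list from its alignments and 1 further file that they do not describe. The labels name a possible control library, which was not used here, nor were lists on dm3. The deposited signal score is the authors' own, its scale is not stated, and it served only to rank regions within a list. The optimal peaks matched the top 3276 pooled regions. The IDR cutoff, peak caller and aligner that the authors used are details not given in the sources used here.

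Genes and TSSs came from Ensembl release 115, and sequence from the Release 6 genome, which is the assembly of dm6. Summits on the 7 chromosome arms were used. The strongest summit within 500 bp of any TSS gave a gene's value. A replicate region up to 200 bp from an optimal summit was taken as that site. The assay has no expression markers, so the labelled tissue was not checked. Of the 25 pathway symbols 21 matched directly, 1 through a synonym, 2 repeated a matched gene and 1 matched none. Members, gene lists and words were chosen with earlier results of these data known, and no test of a list was run. The rule for named genes took every bound member with its values, every canonical subunit, paralogues with a pooled region, bound pathway genes and genes sharing a member's peak. The values of the 4 paralogues with a region in a replicate only were added after they were seen. Alternatives changed the TSS distance, the peak set, the assignment of peaks, the word window and the replicates used. Calls, sharing and word searches were tested on simulated data with planted answers. Analyses used Python 3.11.15, pandas 2.3.3 and numpy 2.4.6.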

Additional observations from a re-analysis of the deposited data

How the results depend on the processing

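Of 119 values recomputed under the alternatives, 107 stayed within 1.5 times the reported count or within 1 SD of the replicates, and 12 did not. Bound members numbered between 12 and 13 without 1 replicate, 12 within 250 bp, 16 within 1000 bp (adding Prosalpha4, Rpn9 and Rpn10) and 10 among the top 1638 optimal peaks (losing Rpt1, Rpn2 and Rpn11). Paralogues stayed at 0 under each of these alternatives. Over all protein-coding genes 2028 were bound within 250 bp and 2928 within 1000 bp, against 2495 within 500 bp. The count over all genes thus also rose with the distance. All bound genes fell to 1400 among the top 1638, to 1495 among peaks in the top of all replicates, and to between 1625 and 1927 without 1 replicate, all of which use fewer peaks or regions. Bound non-ATPase base subunits numbered 2 within 1000 bp and 0 among the top 1638. The mean number of members in the top of a replicate was 12.7 within 250 bp, 17 within 1000 bp and 10 with the top 1638 regions. Within 50 bp of the summit the ELBA site was found at 0 members, the M1BP site at 1 and the DRE at 1. The median position moved from -51 to -66.5 bp within 1000 bp. Bound under every alternative were 8 members (Prosalpha2, Prosalpha5, Prosbeta1, Prosbeta3, Prosbeta5, Prosbeta7, Rpt3 and Rpn7). Rpt3 passed some of these only through its second peak (rank 2379). These were the call within 250 bp, the overlap of a peak interval with a TSS, and the nearest gene only. No replicate 3 region lay within 200 bp of that second summit, and the replicate 1 region, the same as at the strongest peak, was 167 bp away. No paired analysis was possible because there is 1 group. Depth is unknown, so its effect on weak regions was not measured.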
